A study of Homo sapiens with 36 samples.

Results

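The collagen hydroxylases and lysyl oxidases are the enzymes that modify lysine and proline residues of collagen, and 9 of their genes are described here in LNCaP cells, an established human prostate cancer line. The genes were taken by symbol from a table of 29872 genes: the lysyl hydroxylases PLOD1, PLOD2 and PLOD3, the prolyl 4-hydroxylase subunits P4HA1, P4HA2 and P4HB, and the lysyl oxidases LOX, LOXL1 and LOXL2. All 9 were listed. PLOD2 had been singled out because its level was higher than vehicle in treated cells, so the differences between treatment and vehicle below are a description of these genes and are given without a p-value for any of them.

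Cells received vehicle, AU2-94 at 1 or 2 µM, atirmociclib at 1 or 2 µM, or ribociclib at 2 µM. AU2-94 and atirmociclib are selective inhibitors of the cell cycle kinase CDK4, and ribociclib inhibits CDK4 and CDK6. In the paper's kinase assays atirmociclib was less selective for CDK4 than AU2-94 and inhibited other CDKs, CDK9 among them, more strongly. Each of the 6 arms was harvested after 24 h and after 72 h with 3 biological replicates, giving 12 groups and 36 libraries of total RNA. LNCaP is a single line grown as a monoculture, the vehicle groups carry a dose of 2 µM in the labels, and the wells kept for 72 h were seeded more thinly, so time and seeding density cannot be told apart.

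Collagen chains are modified while they fold in the endoplasmic reticulum. Prolyl 4-hydroxylase, built from an alpha subunit (P4HA1 or P4HA2) that carries the active site and a beta subunit (P4HB, also known as protein disulfide isomerase), hydroxylates prolines, which stabilises the triple helix. Lysyl hydroxylases act on lysines, and PLOD2 is known for those of the telopeptides at the chain ends. Lysyl oxidases then act outside the cell on lysines and hydroxylysines to start the cross-links between chains, and hydroxylated telopeptides give the more stable cross-links of stiff and fibrotic matrix. The hydroxylases consume oxygen and 2-oxoglutarate. PLOD2, P4HA1 and LOX are among the textbook targets of the hypoxia-inducible factors (HIFs), which bind DNA at the core letters ACGTG or GCGTG. Naming them does not say that the other genes are not targets.

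PLOD2 (ENSG00000152952) lies on the minus strand of chromosome 3 (chr3:146035139-146163725, GRCh38, GENCODE release 44). The paralogues PLOD1 (ENSG00000083444) and PLOD3 (ENSG00000106397) lie on chromosomes 1 (chr1:11934205-11975538) and 7 (chr7:101205977-101218420). The prolyl 4-hydroxylase genes are at chr10:73007217-73096974 (P4HA1, ENSG00000122884), chr5:132190147-132295315 (P4HA2, ENSG00000072682) and chr17:81843159-81860856 (P4HB, ENSG00000185624).

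The HIF core letters were looked for, on both strands, in RefSeq promoter windows (GRCh38.p14) that run from 250 bases before to 50 bases after a transcript start, and 8 of the 9 genes had such a window. PLOD2 held 3 matches, P4HA1 held 1, of the 3 LOX windows the one farthest upstream held 4 and the others 2 each, PLOD1 held 2 and P4HB held 1, while PLOD3, P4HA2 and LOXL1 held 0. Over all 35116 windows, 48.4% held at least 1 match, 23.1% at least 2, 10.1% at least 3 and 4.40% at least 4. The matches of PLOD2, P4HA1 and the LOX window farthest upstream are shown because the levels of these 3 genes stood highest over vehicle. Each is given 5′ to 3′ on the strand that reads the core, with 12 bases on either side and the core in capitals, and the name ends with the number of bases by which the match precedes the start.
PLOD2, 213 before, chr3:146161381-146161409, minus strand: gccagaagcgctGCGTGagcctccacacg
PLOD2, 200 before, chr3:146161368-146161396, plus strand: ctgcctgcggctACGTGtggaggctcacg
PLOD2, 146 before, chr3:146161314-146161342, minus strand: caaacagtccagACGTGgggcccaggagg
P4HA1, 86 before, chr10:73096936-73096964, plus strand: gcagccctcgctACGTGagctcgatcaca
LOX, 185 before, chr5:122078428-122078456, minus strand: gctccctgtgcaACGTGtctggggggagg
LOX, 116 before, chr5:122078359-122078387, plus strand: atgcgattggaaACGTGcaaggcggacag
LOX, 98 before, chr5:122078341-122078369, minus strand: tccaatcgcattACGTGaacaaatagctg
LOX, 42 before, chr5:122078285-122078313, minus strand: gtaactttgcaaACGTGccagaaagttta
The first pair of PLOD2 stretches overlap and read opposite strands. A match says only that these letters are present, and whether a factor binds them was not measured.

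The unit throughout is the normalised count that the authors deposited, which need not be whole, and the values of a library summed to 20675156 to 22692555 per library. The counting error of a gene at a few normalised counts is large, and values at or under 3 are treated as the floor. All 10 luminal prostate markers were abundant in every library, with KLK3, the gene of prostate-specific antigen, at a mean of 36938. Of 12 fibroblast markers, 7 (DCN, LUM, PDGFRA, THY1, FAP, POSTN and COL1A2) reached at most 6.09 in any library. The other 5 were detected, with highest libraries at 24.1 for FBLN1, 36.9 for COL3A1, 48.7 for PDGFRB, 190 for ACTA2 and 644 for COL1A1. The sum of the 12 was 476 to 583 in vehicle and 366 to 622 in treated libraries at 24 h, and 553 to 699 and 578 to 764 at 72 h. One library stood apart: in replicate 3 of atirmociclib 2 µM at 24 h, each of the 8 genes (of the 9) with a mean of at least 10 lay below the mean of the other 2 replicates (median difference -0.74, log2) and so did 27 of 27 other HIF target genes (median -0.86). The median over 15257 genes with the same minimum was 0.00 there. Differences of PLOD2 and P4HA1 that rest on this library are given with and without it.

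PLOD2 was close to the floor in vehicle and was readily counted in treated cells. In bulk RNA, fewer cells of a kind and less RNA per cell cannot be told apart. The 3 vehicle libraries at 24 h held 2.08, 24.1 and 13.3 normalised counts. At 24 h the 3 libraries of AU2-94 at 1 µM held 242, 564 and 472, and those at 2 µM held 636, 631 and 462. All 6 values stood far above the vehicle libraries, and the share of all genes that separate in this way was not counted. Atirmociclib gave 497, 375 and 443 at 1 µM and 570, 427 and 44.7 at 2 µM, the last being the library that stood apart, and ribociclib gave 238, 195 and 290. All 15 treated libraries lay above all 3 vehicle libraries, by 1.85 times between the lowest treated and the highest vehicle library. The fitted log2 fold changes, on the log2(normalised count + 1) scale, ran from 4.43 (atirmociclib 2 µM) to 5.79 (AU2-94 2 µM) with a standard error of 0.73, and that of atirmociclib 2 µM was 5.58 without replicate 3.

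At 72 h the vehicle libraries held 2.08, 4.28 and 3.52 normalised counts of PLOD2. AU2-94 gave 319, 299 and 352 at 1 µM and 239, 218 and 365 at 2 µM. Atirmociclib gave 125, 160 and 260 at 1 µM and 142, 183 and 194 at 2 µM, and ribociclib gave 169, 104 and 323. The groups again did not overlap, with 24.3 times between the lowest treated and the highest vehicle library. Treated group means were 18.3 to 43.7 times the vehicle mean at 24 h. At 72 h they were 52.6 to 98.3 times, and these larger ratios stand over a lower vehicle mean (3.29 against 13.2) rather than higher treated means (173 to 323 against 241 to 576). The log2 fold changes at 72 h were 5.37 to 6.27 (SE 0.33). PLOD2 passed the filter on low values (at least 10 in at least 3 libraries) only with the help of treated libraries at both times, since 2 vehicle libraries reached 10 at 24 h and 0 at 72 h, so it had to differ once it was tested.

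**Figure D1:**
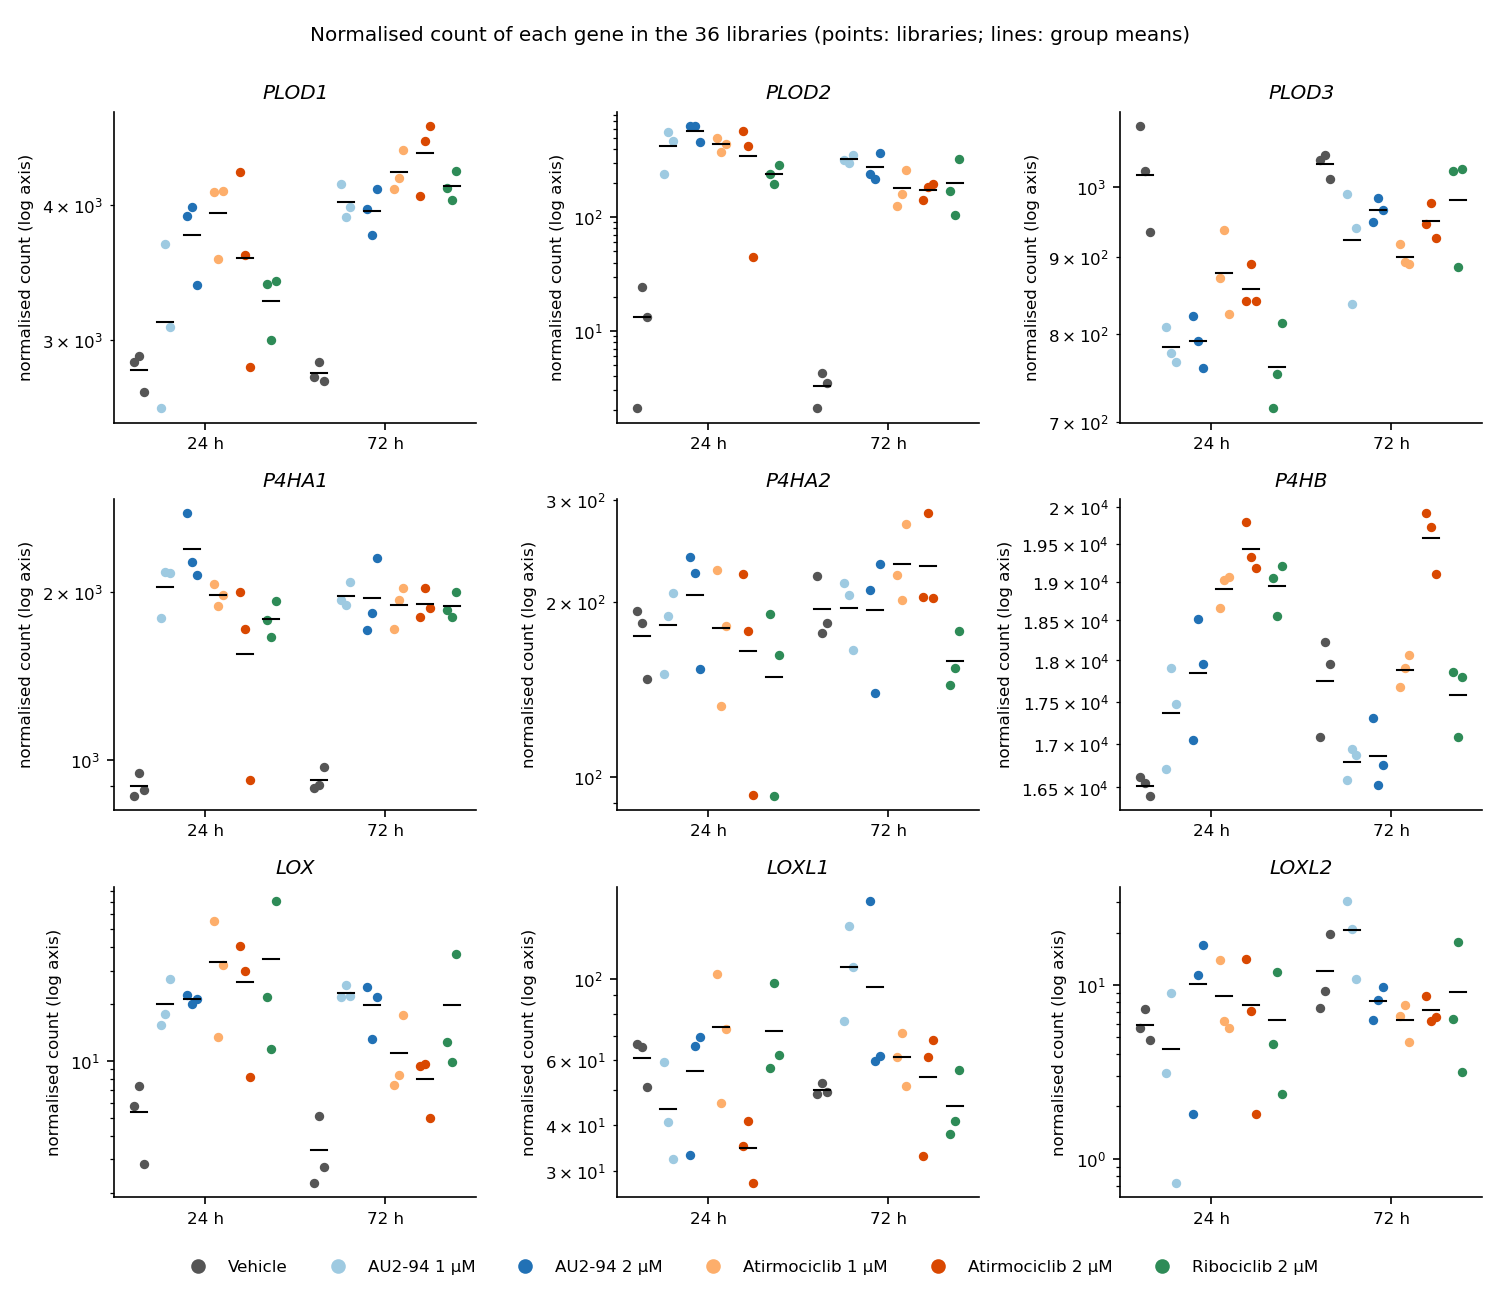
Normalised counts (log axes, scaled per gene) of the 9 genes in the 36 libraries, with vehicle in grey, the 5 treatments in colour, 24 h on the left and 72 h on the right of each panel, and group means as lines. PLOD2, from 2.08 to 24.1 in vehicle and 44.7 to 636 in treated libraries, has the widest gap, and replicate 3 of atirmociclib 2 µM at 24 h lies below its replicates in PLOD1, PLOD2, P4HA1 and LOX.

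PLOD1, the broadly expressed lysyl hydroxylase of the helical part of collagen, moved far less. Its vehicle libraries at 24 h held 2861, 2898 and 2685 normalised counts and the 15 treated ones 2590 to 4301 with a median of 3567, of which 13 lay above all vehicle libraries and 1 below. At 72 h vehicle held 2769, 2861 and 2745 and all 15 treated libraries, from 3755 to 4742, lay above. Ratios of group means were 1.11 to 1.40 at 24 h and 1.42 to 1.60 at 72 h. PLOD3, which also has glycosyltransferase activity on collagen, lay on the other side of vehicle: 1098, 1025 and 935 in vehicle at 24 h against 715 to 937 in treated libraries, of which 14 of 15 lay below all vehicle libraries. At 72 h vehicle held 1042, 1051 and 1013 and treated libraries 838 to 1029, with 13 of 15 below. Ratios of means were 0.75 to 0.86 at 24 h and 0.87 to 0.95 at 72 h.

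P4HA1, the main alpha subunit of prolyl 4-hydroxylase, was the abundant gene with the clearest difference. Vehicle held 864, 950 and 886 normalised counts at 24 h and 892, 904 and 972 at 72 h. AU2-94 at 24 h gave 1797, 2166 and 2162 at 1 µM and 2760, 2259 and 2140 at 2 µM. These 6 values all lay above the 3 vehicle libraries, and the share of all genes that separate in this way was not counted. Atirmociclib at 24 h gave 2061, 1885 and 1971 at 1 µM and 1999, 1718 and 924 at 2 µM, and ribociclib gave 1781, 1658 and 1924. At 24 h, 14 of 15 treated libraries lay above vehicle, and the 15th was replicate 3 of atirmociclib 2 µM, which fell inside the vehicle range. At 72 h all 15 treated libraries, from 1712 to 2300, lay above, with ratios of group means of 2.04 to 2.13. The ratios at 24 h were 1.72 (atirmociclib 2 µM) to 2.65 (AU2-94 2 µM), and the log2 fold change of atirmociclib 2 µM was 0.71 with and 1.04 without replicate 3.

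P4HA2, the other alpha subunit, did not separate from vehicle: vehicle held 147 to 193 normalised counts at 24 h and 177 to 222 at 72 h, and treated libraries 92.6 to 239 and 140 to 285. Ratios of means were 0.85 to 1.18 and 0.81 to 1.20. P4HB was the most abundant of the 9 genes, at 16406 to 16614 in vehicle at 24 h and 16708 to 19789 in treated libraries, all 15 above, with ratios of 1.05 to 1.18, but under quantile normalisation its log2 fold changes at 24 h turned negative in all 5 treatments (-0.13 to -0.01). At 72 h vehicle held 17077 to 18226, 3 of 15 treated libraries lay above and 5 below, and ratios were 0.95 to 1.10. The direction of P4HB against vehicle at 24 h therefore depends on the scaling.

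The lysyl oxidase genes lie at chr5:122063195-122078413 (LOX, ENSG00000113083), chr15:73925989-73952137 (LOXL1, ENSG00000129038) and chr8:23296897-23425328 (LOXL2, ENSG00000134013). LOX, the founding lysyl oxidase, was near the floor in vehicle, with 5.79, 7.38 and 2.84 normalised counts at 24 h and 2.24, 5.06 and 2.74 at 72 h. Treated libraries held 8.25 to 70.8 (median 21.7) at 24 h and 4.99 to 36.8 (median 13.1) at 72 h, and 15 of 15 and 14 of 15 lay above all vehicle libraries. Ratios of group means were 3.77 to 6.50 and 2.39 to 6.87. LOX passed the filter on low values only through treated libraries, and the treated groups spread widely, as in ribociclib at 24 h with 21.7, 11.5 and 70.8. LOXL1 held 50.7 to 66.3 in vehicle at 24 h and 48.5 to 52.0 at 72 h, with treated libraries on both sides (27.9 to 103 and 33.0 to 163). At 24 h 4 of 15 treated libraries lay above all vehicle libraries and 7 below, and at 72 h 11 above and 3 below. Its ratios of group means were 0.57 to 1.22 at 24 h and 0.90 to 2.16 at 72 h. LOXL2 stayed near the floor in many libraries (0.72 to 30.6) and overlapped vehicle at both times.

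Of the 45 comparisons of a gene with vehicle at 24 h, 21 were past an adjusted p of 0.05 on the higher side and 5 on the lower side, and at 72 h 21 and 1 of 45. All genes tested gave 14.3%, 16%, 16.6%, 18.6% and 16.8% on the higher side at 24 h for AU2-94 1 and 2 µM, atirmociclib 1 and 2 µM and ribociclib, and 15.4%, 14.2%, 20%, 20.9% and 15.5% at 72 h. On the lower side they gave 13.5%, 14.9%, 15.4%, 16.2% and 15.2% at 24 h and 17%, 15.3%, 19.8%, 19.6% and 15.4% at 72 h. Nothing is read from these counts, since the genes were chosen on the same comparisons. For the libraries that do not overlap, 11% of genes tested had all 15 treated libraries above vehicle at 24 h and 10.7% below, and 9.96% and 11.3% at 72 h. The share of all genes was not counted for separations of fewer than 15 treated libraries, so nothing is read from those counts.

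**Figure D2:**
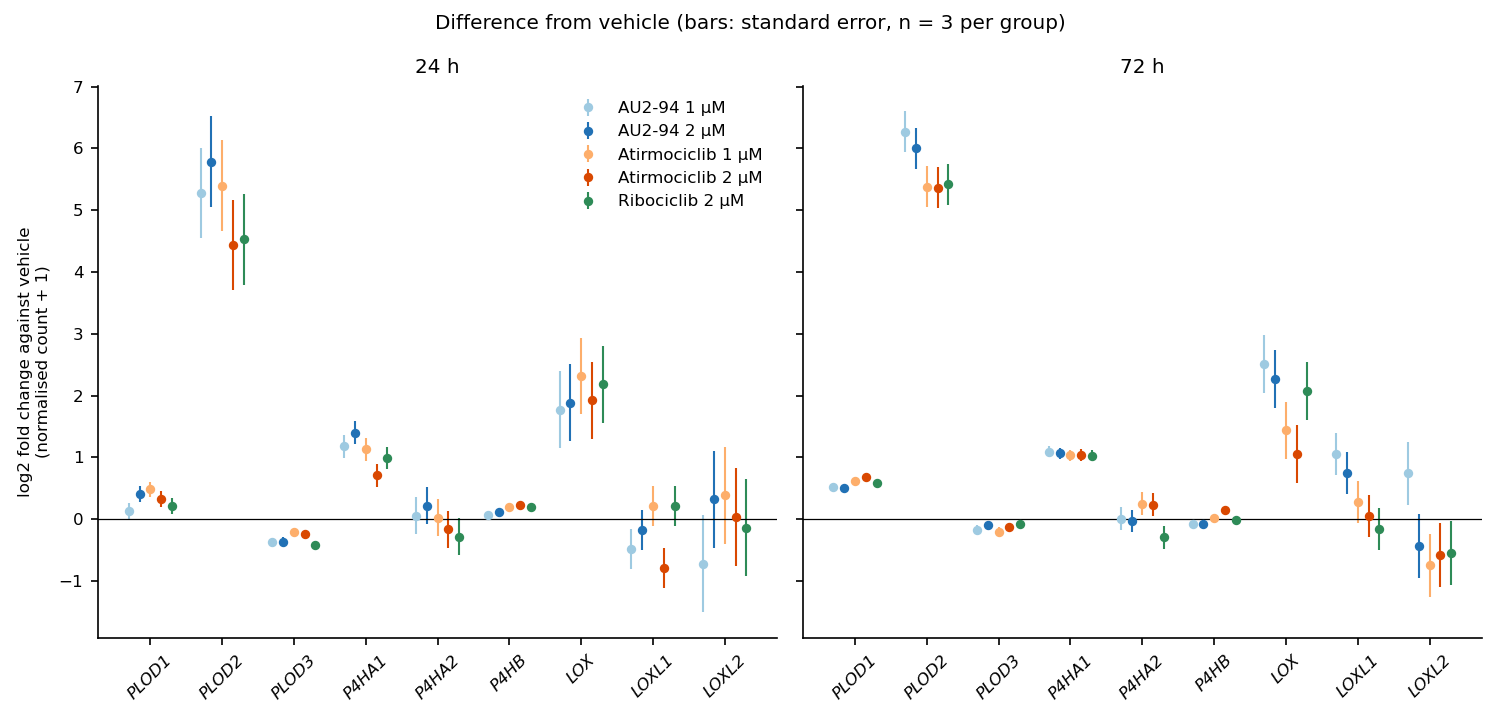
Log2 fold change against vehicle (log2(normalised count + 1), bars show the standard error, 3 libraries a group) of each gene for the 5 treatments at 24 h and 72 h. PLOD2 sits at 4.43 to 6.27 and P4HA1 at 0.71 to 1.40, PLOD3 sits below 0 throughout, and the small values of P4HB at 24 h change sign under quantile normalisation.

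Levels can be set beside each other only per length. Divided by the length of the MANE Select transcript, the mean over the 36 libraries was 7367 normalised counts per kilobase for P4HB, 1237 for PLOD1, 643 for P4HA1, 320 for PLOD3, 71.1 for PLOD2, 41.5 for P4HA2, 26.8 for LOXL1, 3.71 for LOX and 2.38 for LOXL2. The order of neighbours depended on treatment for some. P4HA1 lay below PLOD3 in all 6 vehicle libraries and above it in all 30 treated ones, and PLOD2 lay below P4HA2 in all 6 vehicle libraries and above it in 24 of 30 treated ones. LOX lay below LOXL2 in all 6 vehicle libraries and above it in 21 of 30 treated ones, values at which both are close to the floor. P4HA2 and LOXL1 overlapped, with P4HA2 higher in 32 of 36 libraries, whereas P4HB lay above PLOD1, and PLOD1 above P4HA1, in all 36. Part of this order depends on the length used: per kilobase of all annotated exons PLOD2, P4HA2 and LOXL1 had close means of 18.3, 18.6 and 17.3.

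Within the lysyl hydroxylase family, PLOD2 made up a small part even where it was highest. Of the summed level per kilobase of PLOD1, PLOD2 and PLOD3, its share was 0.269% ± 0.219 (SD, n = 3) in vehicle at 24 h and 0.0671% ± 0.0220 at 72 h. At 24 h it was 7.70% ± 2.09 with AU2-94 at 1 µM, 9.01% ± 0.810 at 2 µM, 6.66% ± 0.568 with atirmociclib at 1 µM, 5.31% ± 3.82 at 2 µM and 4.48% ± 0.611 with ribociclib. Without replicate 3 of atirmociclib 2 µM the share was 7.49%. At 72 h the shares were lower than at 24 h in each treatment, from 2.44% ± 0.237 with atirmociclib at 2 µM to 4.88% ± 0.375 with AU2-94 at 1 µM. The share of PLOD1 was 72.2% in vehicle and 72.6% to 76.6% in treated groups at 24 h, and 71.8% against 76.2% to 79.7% at 72 h. That of PLOD3 was 27.5% in vehicle and 16.6% to 19.7% in treated groups at 24 h, and 28.1% against 17.6% to 19.7% at 72 h. The size of these shares depends on the length used: per base of all annotated exons, in which PLOD2 is longer, its share at 24 h with AU2-94 at 2 µM was 4.46%.

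**Figure D3:**
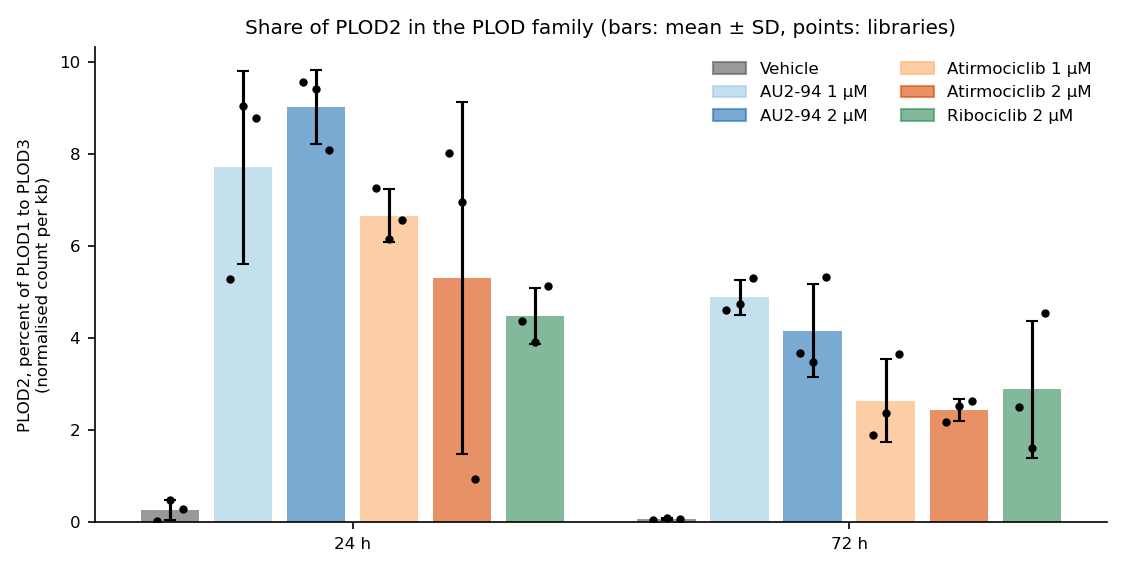
Share of PLOD2 in the summed level per kilobase of PLOD1, PLOD2 and PLOD3 (percent), bars showing mean ± SD and points the libraries. Vehicle stays under 0.479% in every library, treated groups average 2.44% to 9.01%, and replicate 3 of atirmociclib 2 µM at 24 h is at 0.945%.

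The inhibitors were compared with each other at a matched dose and time, a comparison that did not choose these genes. The 9 genes and 8 contrasts gave 72 comparisons, of which 6 were past an adjusted p of 0.05 over all genes tested (limma, Benjamini-Hochberg) and 22 had an unadjusted p under 0.05. All genes tested were called in 4.64% (atirmociclib against AU2-94, 1 µM, 24 h), 9.44% (2 µM, 24 h), 8.24% (1 µM, 72 h) and 19.8% (2 µM, 72 h), in 0.0372% and 3.34% for ribociclib against AU2-94 at 24 h and 72 h, and in 4.64% and 9.18% for ribociclib against atirmociclib.

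PLOD2 passed in 0 of its 8 comparisons, with 1 at an unadjusted p under 0.05, and the intervals were wide. At 72 h and 1 µM it was lower with atirmociclib than with AU2-94 by a log2 fold change of -0.90 (95% interval -1.59 to -0.20, limma adjusted p = 0.114), with 125, 160 and 260 normalised counts against 319, 299 and 352. All 3 atirmociclib libraries lay below all 3 AU2-94 libraries. The share of all genes that separate in this way was not counted, so nothing is read from it. With the replicate number as a block the same difference had a limma adjusted p of 0.0454, and it was 0.0424 when only the 2 groups compared were fitted. At 2 µM and 72 h atirmociclib against AU2-94 gave -0.63 (-1.33 to 0.06, adjusted p = 0.199 by limma) and ribociclib against AU2-94 -0.58 (-1.28 to 0.12, adjusted p = 0.39 by limma). At 2 µM and 24 h atirmociclib against AU2-94 was -1.35 (-2.89 to 0.19) and only -0.21 without replicate 3 of atirmociclib. Ribociclib against atirmociclib, at 0.10 (-1.44 to 1.63) at 24 h and 0.05 (-0.64 to 0.75) at 72 h, was not resolved in either direction, which does not show that they act alike. Without replicate 3 of atirmociclib the difference at 24 h turned to -1.05 (limma adjusted p = 0.381).

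P4HA1 was lower with atirmociclib than with AU2-94 at 2 µM and 24 h, with a log2 fold change of -0.69 (-1.08 to -0.30, limma adjusted p = 0.0231). All 3 libraries of one lay below all 3 of the other, and here too the share of all genes was not counted. The call was lost without replicate 3 of atirmociclib (-0.36, adjusted p = 0.0555 by limma) and without replicate 1 of AU2-94 (-0.58, adjusted p = 0.108 by limma). At 72 h the P4HA1 levels of the inhibitors lay close together: the 4 contrasts gave -0.06 to -0.01, with 95% intervals between -0.25 and 0.18. PLOD1 was higher with atirmociclib than with AU2-94 at 2 µM and 72 h by 0.17 (0.06 to 0.29, limma adjusted p = 0.0322). That difference was 0.07 under quantile normalisation and under equal library totals, where the median of all genes in this contrast moved to -0.10, and it was no longer past the threshold in either. It was also lost without replicate 1 or 2 of AU2-94 or replicate 2 or 3 of atirmociclib (limma adjusted p from 0.0654 to 0.15). At 1 µM and 24 h PLOD1 passed only without replicate 2 of AU2-94 (0.48, limma adjusted p = 0.044).

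P4HB accounted for the other 4 of the 6 calls. It was higher with atirmociclib than with AU2-94 by 0.12 at 1 µM and by 0.12 at 2 µM at 24 h (limma adjusted p = 0.0418 and 0.0253) and by 0.22 at 2 µM at 72 h (0.15 to 0.28, limma adjusted p = 9.73e-05). In the last of these the libraries held 19910, 19722 and 19095 normalised counts with atirmociclib and 17309, 16523 and 16754 with AU2-94. At 72 h P4HB was lower with ribociclib than with atirmociclib at 2 µM by a log2 fold change of -0.16 (-0.22 to -0.09, limma adjusted p = 0.00422). Only the 0.22 difference stayed past the threshold under quantile normalisation (0.10) and equal library totals (0.11), and the 1 µM difference at 24 h had a limma adjusted p of 0.0577 with the replicate block. That call was also lost without any 1 of its 6 libraries other than replicate 2 of AU2-94 (limma adjusted p from 0.0741 to 0.191), and the 2 µM call at 24 h without replicate 1 of AU2-94 or replicate 1 or 2 of atirmociclib (0.0559 to 0.122). No direction of these 4 differences turned under either scaling. LOX, P4HA2, PLOD3, LOXL1 and LOXL2 were past the threshold in 0 of 40 comparisons, with 11 at an unadjusted p under 0.05.

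**Figure D4:**
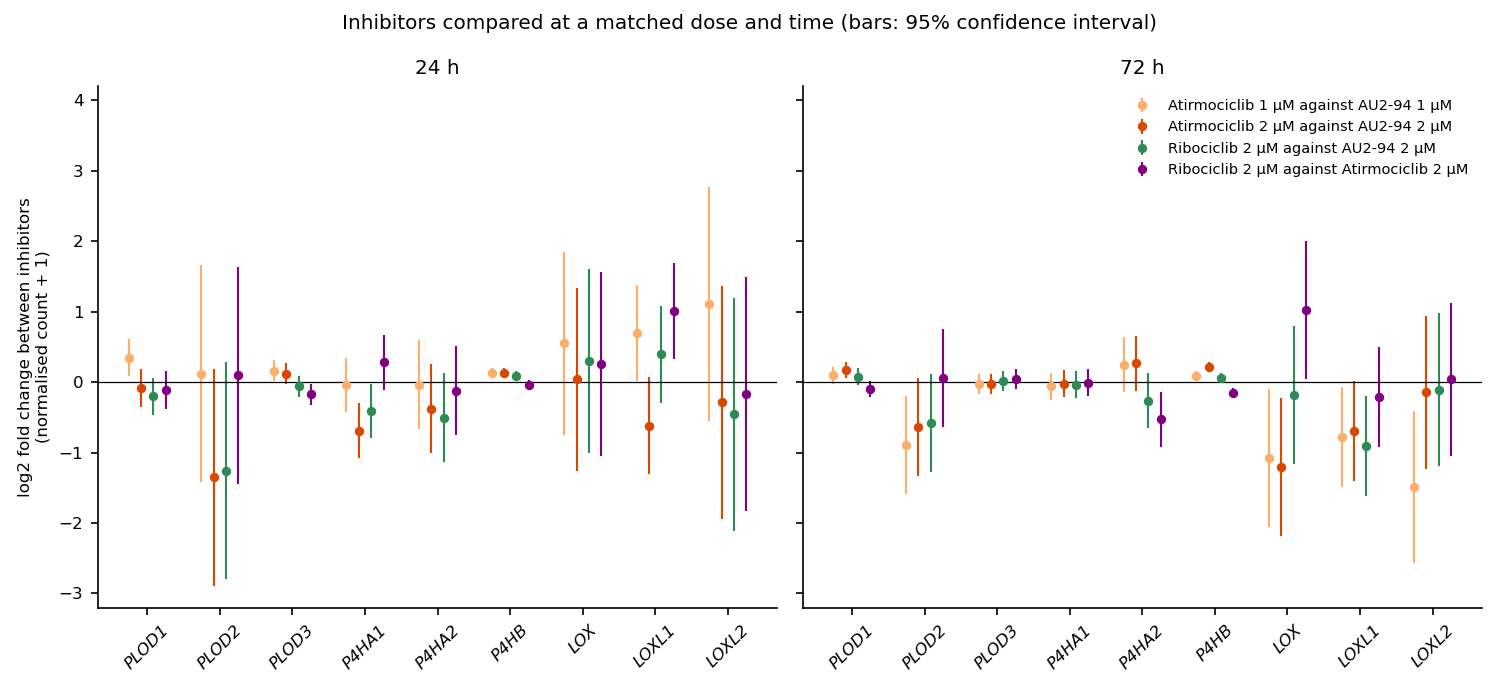
Log2 fold change between inhibitors at a matched dose and time (bars show the 95% confidence interval) for the 9 genes at 24 h and 72 h. Intervals of PLOD2, LOX, LOXL1 and LOXL2 span more than 1 log2 unit, and those of P4HB, PLOD1 and PLOD3 are narrower, with P4HB at 0.22 for atirmociclib against AU2-94 at 2 µM and 72 h.

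Doubling the dose from 1 to 2 µM changed 1 of the 36 comparisons of a gene with its lower dose, with 5 at an unadjusted p under 0.05. P4HB was higher with atirmociclib at 2 than at 1 µM at 72 h by 0.13 (0.06 to 0.20, limma adjusted p = 0.0429; 0.0674 with the replicate block), a contrast in which 2.19% of all genes were called, and the call was lost under quantile normalisation (0.08) and without each of the 6 libraries in turn. AU2-94 gave 0 of 18, with 2 at an unadjusted p under 0.05, where 0.409% of all genes were called at 24 h and 0% at 72 h. Atirmociclib at 24 h gave 0 of 9, where 0.0124% of all genes were called. For PLOD2 the dose contrast was 0.51 (-1.03 to 2.05) and -0.27 (-0.97 to 0.42) for AU2-94, and -0.97 (-2.50 to 0.57) and -0.01 (-0.71 to 0.69) for atirmociclib, at 24 h and 72 h. Without replicate 3 of atirmociclib 2 µM the direction at 24 h turned, to 0.18 for PLOD2 (limma adjusted p = 0.962), and the P4HA1 difference went from -0.42 to -0.09.

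Between the time points, PLOD2 in vehicle was 13.2 normalised counts on average at 24 h and 3.29 at 72 h (log2 fold change -1.31). Without replicate 1 of vehicle at 24 h, the low library with 2.08, the log2 fold change was -2.18. PLOD2 passed the filter only with the help of treated libraries and was close to the floor in vehicle. Its difference between the vehicle groups is therefore a description only and is given without a p-value. Of the other 8 genes only P4HB was past the threshold between the vehicle groups, at 0.10 (0.04 to 0.17, limma adjusted p = 0.0392). In this contrast 7.5% of all genes were called, and the sign of P4HB turned under quantile normalisation (-0.05). The call was lost without any 1 of the 6 vehicle libraries other than replicate 1 at 72 h (limma adjusted p from 0.0791 to 0.181). The change of the effect of a treatment from 24 h to 72 h was tested for the 8 genes other than PLOD2, and 6 of 40 comparisons were past the threshold, with 12 at an unadjusted p under 0.05. LOX made up 5 of the 40, with 0 past the threshold. It too passed the filter only through treated libraries, so nothing is read from these 5. Of all genes, 21.6%, 18.5%, 21.9%, 21.6% and 20.2% were called in these contrasts for AU2-94 1 and 2 µM, atirmociclib 1 and 2 µM and ribociclib. LOXL1 moved by 1.54 in AU2-94 1 µM, PLOD3 by 0.34 in ribociclib, and P4HB by -0.21 to -0.15 in 4 treatments, the sign of the last turning under quantile normalisation. PLOD1 in AU2-94 1 µM (0.39, limma adjusted p = 0.0536) and PLOD3 in AU2-94 2 µM (0.26, limma adjusted p = 0.0532) missed the threshold by little, and passed without replicate 2 of AU2-94 1 µM at 24 h (0.52) and without replicate 3 of vehicle at 24 h (0.32). For PLOD2 the change was a description only, at 0.99 ± 0.87 (SE) in AU2-94 1 µM.

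The genes closest to PLOD2 over the 12 group means (Pearson r of mean log2 values, genes with a mean of at least 50) were BNIP3, a mitophagy receptor, with r = 0.986, NDRG1, a stress-responsive gene, with 0.984, ARHGEF37 with 0.983, PLA2G2A, a secreted phospholipase, with 0.981, and HIF1A-AS3, an antisense RNA of the HIF1A locus, with 0.978. Over the 36 deviations of libraries from their group means they were ALDOC with 0.899, NDUFA4L2 with 0.895, PGK1 with 0.887, ENO1 with 0.876 and BNIP3 with 0.875. ALDOC, PGK1 and ENO1 encode glycolytic enzymes and NDUFA4L2 a mitochondrial protein. BNIP3, NDRG1, ALDOC, NDUFA4L2, PGK1 and ENO1 are also on the list of other HIF target genes. The medians of that list below therefore include them and are not a separate observation. These are descriptions: the libraries share one normalisation, and the library that stood apart has the largest deviation of the HIF target genes.

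Among the other 8 genes the same 2 measures were 0.951 and 0.805 for P4HA1, 0.897 and 0.577 for LOX, 0.643 and 0.668 for PLOD1, -0.02 and 0.518 for P4HA2, 0.264 and 0.305 for P4HB, 0.14 and 0.05 for LOXL1, -0.14 and 0.15 for LOXL2 and -0.69 and -0.01 for PLOD3. P4HA1 and LOX were the closest of the 8 over the group means, and P4HA1 and PLOD1 over the deviations. The medians over 27 other HIF target genes were 0.857 and 0.638, against -0.01 and -0.01 over 12475 genes. Over the 10 luminal prostate markers they were 0.765 and 0.02. The group means hold the difference from vehicle for which PLOD2 was chosen, so genes raised in all treatments read high on that measure. Without the library that stood apart the values over the group means changed little (0.965 for P4HA1, 0.898 for LOX), but those over the deviations were lower, at 0.798 for ALDOC, 0.799 for NDUFA4L2, 0.774 for PGK1, 0.756 for ENO1, 0.747 for BNIP3, 0.587 for P4HA1, 0.463 for PLOD1, 0.416 for LOX, 0.256 for P4HA2 and 0.43 for the median of the HIF target genes. In replicate 1 of AU2-94 1 µM at 24 h, the lowest in its group for PLOD2 and P4HA1, 26 of the 27 HIF target genes lay below the mean of the other replicates (median -0.39).

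**Figure D5:**
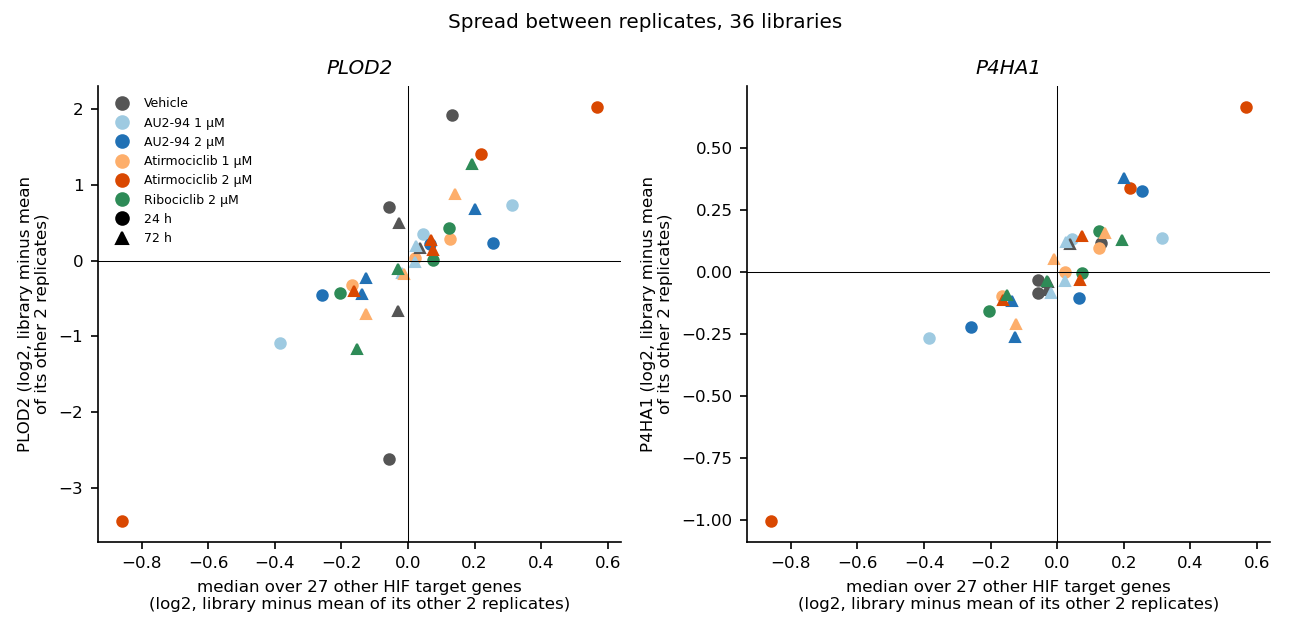
Difference of each of the 36 libraries from the mean of its other 2 replicates (log2), for PLOD2 and P4HA1 on the y axes against the median over 27 other HIF target genes on the x axis. Replicate 3 of atirmociclib 2 µM at 24 h is at the lower left with a median of -0.86, and the vehicle libraries, low in PLOD2, scatter away from the rest in the PLOD2 panel.

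The wider pathway was read from lists beside the background of all genes tested, whose median log2 fold change was -0.01 to 0.01. Of all genes tested, 14.3% to 18.6% rose and 13.5% to 16.2% fell in a treatment at 24 h. At 72 h 14.2% to 20.9% rose and 15.3% to 19.8% fell. The counts of every list here and below stand beside these shares, and counts near them say nothing particular about a list. Of 30 other HIF target genes 28 were tested. Between 13 (ribociclib) and 23 (AU2-94 2 µM) rose after 24 h, when 0 to 1 fell and the list median was 0.42 to 0.93. After 72 h 20 to 22 rose, 0 to 1 fell and the list median was 0.52 to 0.72. The genes named from each list here and below are those that passed in all 5 treatments with the largest mean changes, up to 4 per time. A gene given at only 1 time may also have passed at the other, as ALDOC did at 72 h (2.66 to 2.99 times). Because passing chose the named genes, they are given without a p-value. NDUFA4L2 rose in all 5 treatments by 14.0 to 36.2 times at 24 h and 11.2 to 34.9 times at 72 h. NDRG1 rose 2.99 to 4.87 times and 4.38 to 5.21 times. PFKFB4, a regulator of glycolytic flux, rose 1.93 to 3.97 and 2.87 to 3.68 times, ALDOC 2.38 to 3.10 times at 24 h, and PPFIA4, a liprin scaffold protein, 5.77 to 9.64 times at 72 h. Of 8 tested oxygen-sensing genes, 0 to 2 rose and 0 to 1 fell in any treatment.

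Of 27 other collagen enzymes and chaperones, 20 were tested at 24 h, where 7 to 8 rose and 1 to 2 fell, and 22 at 72 h, where 5 to 8 rose and 1 to 3 fell. TLL1, a tolloid-like procollagen C-proteinase, rose 2.01 to 2.67 times at 24 h and 1.60 to 2.74 times at 72 h in all 5 treatments. FKBP10, a prolyl isomerase known to assist telopeptide lysyl hydroxylation, rose 1.23 to 1.33 times and 1.51 to 1.63 times. PPIB, another prolyl isomerase, rose 1.29 to 1.44 times and CANX, the lectin chaperone calnexin, 1.22 to 1.33 times at 24 h, and HSPA5, a general chaperone, 1.13 to 1.53 times at 72 h. CRTAP, a subunit of the prolyl 3-hydroxylase complex, fell at 72 h to 0.648 to 0.762 of vehicle.

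Of 32 collagen chains 18 were tested at each time. At 24 h 4 to 6 rose and 0 to 3 fell, with list medians of -0.22 to 0.35, and at 72 h 6 to 9 rose and 0 fell, with medians of 0.45 to 0.75. COL12A1, a fibril-associated collagen, rose 6.29 to 9.58 times at 24 h from a low level, with a mean of 46.6 over all libraries. COL5A2, a fibrillar chain, rose 2.03 to 2.74 times and COL4A5, a basement membrane chain, 1.42 to 1.63 times. At 72 h COL18A1 rose 1.80 to 2.39 times, COL6A1 1.54 to 2.11 times, COL6A2 1.24 to 1.51 times and COL4A5 1.23 to 1.39 times. The luminal prostate markers rose too, all 10 in each of the 5 treatments after 24 h and 8 to 10 of them after 72 h. Of 12 fibroblast markers 5 were tested, of which 0 to 2 rose and 0 to 1 fell in a treatment. The part of either marker list in the results above was not tested.

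Some reads of these genes could be shared with others. PLOD1 and PLOD2 overlap no exon of another annotated gene, and these 2 and P4HA1 share no stretch of at least 100 bases at 98% identity with one. P4HA2 shares such stretches with 71 other genes, so its level is uncertain. Exons overlap on the opposite strand for LOX with SRFBP1 (138 bases), LOXL1 with LOXL1-AS1 (335 bases), P4HB with ENSG00000262831 (529 bases) and PLOD3 with ZNHIT1 (102 bases). The same holds for P4HA2 with P4HA2-AS1 (548 bases), LOXL2 with LOXL2-AS1 (178 bases) and P4HA1 with ENSG00000237768 (47 bases). On the same strand LOXL2 overlaps ENTPD4 (120 bases), a gene with a mean of 1498. Whether counting used strand is not given in the sources used here, so LOX, LOXL1 and LOXL2, whose levels are low, carry this uncertainty most.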

How the data were processed

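Total RNA of LNCaP cells was sequenced in 36 libraries of 12 groups, taken from the sample labels, with 3 biological replicates each. Reads went through nf-core/rnaseq 3.18.0 and STAR 2.6.1d on GRCh38, and the authors deposited counts normalised with DESeq2, a read-scale signal. The deposited values are mostly not whole: 21.3% to 51.6% of values under 10 lay within 0.02 of a whole multiple of a common step. The step was the one that fitted the most such values in each library. Count models were therefore not used. The annotation release, counter and strand setting are not given in the sources used here.

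Genes with at least 10 in at least 3 libraries of a fit (16137 at 24 h and 16341 at 72 h) were tested on log2(value + 1) with limma 3.58.1 (lmFit, eBayes with trend) in R 4.3.3. The 6 groups of a time were fitted together, and the 12 groups for changes between times. P-values were adjusted within a contrast by Benjamini-Hochberg, and a call was an adjusted p of at most 0.05. Standard errors describe these libraries, and the floor of 3 covers counting error only. The genes and lists were chosen with earlier results of these data known. Named are the 9 genes, the 5 most like PLOD2 by each of 2 measures (mean of at least 50), and of each pathway list up to 4 genes per time that passed in all 5 treatments, by size of mean change (mean of at least 10). Fibroblast and luminal markers were fixed lists. Per-length levels used MANE Select transcripts of GENCODE release 44, shared stretches came from BLAST 2.17.0, and promoter windows from RefSeq (GRCh38.p14).

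The labels give the replicate number as a batch, so libraries with the same number may be paired. Across genes, deviations from the group mean correlated between same-numbered libraries by 0.0036 on average at 24 h (45 pairs, -0.11 to 0.15) and by 0.0019 at 72 h (-0.11 to 0.08). Differently numbered libraries gave averages of -0.0018 and -0.00093. The fit has no block, and the blocked fit is an alternative. Simulated data with known changes tested the steps for AU2-94 1 µM against vehicle at 24 h over 15875 genes: of 200 planted genes 85% at a log2 change of 1 and 99% at 2 were recovered, 96.3% of calls were planted, and an unchanged group gave 0 calls. Alternatives changed the pseudocount (8 and 0.5), the filter, the scaling, the replicate block, which libraries were fitted, the trend, the call rule, the length and single libraries.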

Additional observations from a re-analysis of the deposited data

Results flagged for a closer look

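In 6 of 40 comparisons, in contrasts where 18.5% to 21.9% of all genes were called, the effect of a treatment against vehicle differed between 24 h and 72 h by a test of the difference itself (limma interaction contrast over all 36 libraries, adjusted over all genes). The 40 leave out PLOD2 but include 5 of LOX, which passed the filter only through treated libraries and had 0 past the threshold. LOXL1 with AU2-94 at 1 µM moved by 1.537 on the log2 scale (95% interval 0.54 to 2.53, adjusted p = 0.0224), with 59.3, 40.9 and 32.4 normalised counts at 24 h and 77.0, 139 and 107 at 72 h, and it was 1.34 with an adjusted p of 0.0684 without replicate 3 of that group at 24 h and 1.33 with 0.0689 without replicate 2 at 72 h. PLOD3 with ribociclib moved by 0.3381 (0.14 to 0.53, adjusted p = 0.0108), the level being 0.75 of vehicle at 24 h and 0.95 at 72 h, and its adjusted p was 0.0551 when only the groups compared were fitted. P4HB moved by -0.1505 with AU2-94 at 1 µM (adjusted p = 0.0138), -0.1839 with AU2-94 at 2 µM (0.00315), -0.1832 with atirmociclib at 1 µM (0.0028) and -0.2107 with ribociclib (0.000769). All 4 of these P4HB differences changed sign under quantile normalisation (0.0897, 0.0503, 0.034 and 0.0335). The 2 times also differ in seeding density, and the 2 cannot be told apart.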

How the results depend on the processing

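Differences past the threshold as reported or in the alternative changed direction in 10 cases, all of P4HB under quantile normalisation, the first of them past it only in the alternative: at 24 h against vehicle -0.1336 and -0.078 with AU2-94 1 and 2 µM, -0.0361 and -0.0089 with atirmociclib 1 and 2 µM and -0.0287 with ribociclib, between the times 0.0897, 0.0503, 0.034 and 0.0335, and in vehicle -0.0458. The cause was not tested. Equal library totals moved the median of all genes by at most 0.10. With a fold of at least 2 required as well, the calls against vehicle fell from 6 to 0 on the lower side, those between inhibitors from 4 higher and 2 lower to 0 and 0, those between doses from 1 to 0, those between times from 2 higher and 4 lower to 1 and 0, and in vehicle from 1 to 0. The same rule left 11 higher and 3 lower of 72 and 16 for other collagen enzymes, 37 and 2 of 62 and 6 for collagen chains, and 79 and 0 of 196 and 5 for HIF target genes, summed over the 10 comparisons, by its construction. A mean of at least 100 left 37 higher calls of collagen chains. Between inhibitors the higher calls were 1 with no filter, quantile normalisation, equal totals, only the compared groups or no trend, and the lower calls 1 in the last 4 of these. With the replicate block they were 3 and 3, and the block took the dose call from 1 to 0 and changed no tested call of these genes beyond those given beside the results. The dose call and the vehicle call were also 0 with no filter, quantile normalisation, equal totals, only the compared groups or no trend. Between times quantile normalisation gave 4 higher and 0 lower and equal totals 6 and 2. Leaving out 1 library gave 36 to 43 higher and 4 to 7 lower calls against vehicle, 3 to 5 and 1 to 2 between inhibitors, 0 to 1 between doses, 1 to 3 and 4 between times, and 0 to 1 and 0 to 1 in vehicle. The lower call in vehicle was PLOD2, close to the floor there, and nothing is read from it. The PLOD2 share without division by length was 11.19% (AU2-94 2 µM), 8.32% (atirmociclib 1 µM) and 5.629% (ribociclib) at 24 h, and 6.135%, 5.235% and 3.084% (AU2-94 1 and 2 µM, atirmociclib 2 µM) at 72 h. Per kilobase of all annotated exons, an alternative chosen after seeing the data, it was 3.801%, 4.461%, 3.255% and 2.165% (AU2-94 1 and 2 µM, atirmociclib 1 µM, ribociclib) at 24 h, and 0.03197% (vehicle), 2.366%, 2.01%, 1.265%, 1.165% and 1.388% at 72 h. Depth limits PLOD2 and LOX in vehicle and LOXL2 throughout.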
